A study of Homo sapiens with 16 samples.

Results

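The effect of dexamethasone (Dex) was measured in MM1R, a human myeloma cell line that is resistant to this synthetic glucocorticoid and was derived from the sensitive line MM1S. The question was whether any transcriptional response to Dex was left in MM1R, and how small a change the data could show. The members were all 8 MM1R libraries of the 16 in the series: 4 from cells given Dex and 4 from cells without it. Of 23354 genes in the count table, 13788 had enough reads in MM1R to be tested.

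Each line was grown for 48 h in 4 ways, with 2 libraries per group: with vehicle (Veh), with TAK-981 at 0.1 μM, with Dex at 1 μM, or with both drugs (combo). TAK-981 inhibits the E1 enzyme that activates the small protein modifier SUMO. The comparison of 4 libraries with Dex (Dex and combo) against 4 without (Veh and TAK-981) therefore carried a term for TAK-981, and each side held cells with and without that inhibitor. MM1R is a single line, grown without stromal or immune cells, and total RNA was sequenced after removal of ribosomal RNA. The labels do not say whether the 2 libraries of a group came from separate cultures, so p-values measure the spread between these libraries, which may be technical.

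Dex enters the cell and binds the glucocorticoid receptor, encoded by NR3C1, which waits in the cytoplasm in a complex with HSP90, p23 and the immunophilins FKBP4 and FKBP5. The bound receptor moves to the nucleus, where it binds glucocorticoid response elements (a pair of hexamers around a short spacer) and raises genes such as FKBP5, TSC22D3, PER1 and DUSP1. It also holds back genes driven by AP-1 and NF-κB. In lymphoid and plasma cells the programme ends in arrest and apoptosis, in which BIM (BCL2L11) and BMF take part, and this is why Dex is used against myeloma.

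The promoters of FKBP5 and DUSP1 are shown because FKBP5 had the highest Dex fold change in MM1S among genes with a mean log2 CPM of at least 3 in MM1S and 1 in MM1R and DUSP1 had the smallest p in MM1R. Each run is the RefSeq sequence from 250 bases before to 50 bases after the transcription start, 5′ to 3′, on the minus strand of GRCh38.p14, with the response element hexamer AGAACA in capitals where present. The FKBP5 window is chr6:35728534-35728833 and the DUSP1 window is chr5:172771146-172771445.
FKBP5: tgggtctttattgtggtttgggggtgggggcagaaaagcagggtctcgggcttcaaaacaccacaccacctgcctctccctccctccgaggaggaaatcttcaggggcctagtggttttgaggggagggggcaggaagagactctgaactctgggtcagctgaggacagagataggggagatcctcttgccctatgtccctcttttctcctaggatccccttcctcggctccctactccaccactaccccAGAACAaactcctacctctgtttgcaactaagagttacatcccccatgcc
DUSP1: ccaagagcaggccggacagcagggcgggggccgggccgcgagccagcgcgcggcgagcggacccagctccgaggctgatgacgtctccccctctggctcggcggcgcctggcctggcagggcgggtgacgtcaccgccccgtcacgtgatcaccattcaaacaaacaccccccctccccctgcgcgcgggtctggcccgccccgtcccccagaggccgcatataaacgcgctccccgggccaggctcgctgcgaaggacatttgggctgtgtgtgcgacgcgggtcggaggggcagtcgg

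The FKBP5 window held AGAACA, and neither AGAACA nor its reverse complement TGTTCT was in the DUSP1 window. A second RefSeq promoter of FKBP5 held neither. Searched on either strand with 0 mismatches, the hexamer was in 5192 of 35116 RefSeq promoters (14.8%) and in 5 of the 53 promoters (9.43%) of a list of glucocorticoid-induced genes described below. AGAACA followed after 3 bases by TGTTCT was in 1 of the 35116 promoters and in none of those 53. The match is a description of these letters and says nothing about binding outside the window.

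The MM1R libraries held 18987739 to 24796539 counts and the MM1S libraries 15707587 to 20644510. All 12 plasma cell and myeloma markers were above 1 CPM in MM1R (read counts scaled to a common library size by the TMM method over the 16 libraries), and their summed level was 30571 to 31278 CPM without Dex and 28628 to 31986 CPM with it. Of the markers of other cells, 3 of 5 for mature B cells, 5 of 6 for T and NK cells, 5 of 6 for myeloid cells and 4 of 6 for epithelial and stromal cells were under 1 CPM in all 8 libraries. CD3D, NKG7, S100A8 and FCGR3A were at 0. The summed levels without and with Dex were 27.3 to 33.2 and 28.5 to 33.9 CPM for mature B cells, 2.71 to 5.40 and 2.36 to 6.11 CPM for T and NK cells, 6.64 to 11.8 and 5.55 to 9.44 CPM for myeloid cells, and 4.13 to 7.41 and 3.71 to 6.74 CPM for epithelial and stromal cells. The first Dex library of MM1R stood apart: it lay at 22.3 on a component holding 4.99% of the variance, with the other 7 between -11.3 and 2.79. Its log2 difference from its replicate was -0.09 (median) over 1621 genes shorter than 2 kb and 0.09 over 1014 genes longer than 8 kb. The second Veh library held 302 counts of 8 genes known from pancreas, gut and liver (ALDH1A1, C3, GCG, OLFM4, REG1A, REG1B, SERPINA1 and SERPINA3, named after their values were seen), against 1 to 10 in each of the other 15 libraries. Counts of genes called for Dex in MM1R are given with and without these libraries. The MM1R intervals and their margins are given with all 8 libraries only. The part of these libraries in the results was not tested further.

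No gene passed the test for Dex in MM1R. Over the 13788 genes, 0 (0%) were called at an adjusted p of 0.05 by edgeR's quasi-likelihood test with Benjamini-Hochberg adjustment, and 0 at 0.25. At an unadjusted p under 0.05 there were 352 genes (2.55%), 210 higher with Dex (1.52%) and 142 lower (1.03%), where p-values spread evenly would put 689.4 genes. DESeq2 called 0 genes and put 79 under 0.05, and limma-voom called 0 and put 359 there. With the first Dex library left out, 0 genes were called and 726 were under 0.05. With the first Veh library left out, 8 genes were called lower, the 8 whose reads stood in the second Veh library, which was then the only Veh library in the fit. With the second TAK-981 library left out, 1 gene was called, PTTG3P, with 42 counts in the first. Leaving out any of the other 6 libraries gave 0 calls.

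The same libraries showed other changes plainly. TAK-981 in MM1R changed 9773 genes (70.9%), 4772 higher and 5001 lower, and 2810 of them by less than 1.2-fold. The smallest called change was 0.06 on the log2 scale. In MM1S, Dex changed 4734 of 13799 genes (34.3%), 2114 higher and 2620 lower. The difference between the lines in the Dex effect, tested in 1 fit over the 16 libraries, was called for 3998 of 14215 genes (28.1%), the MM1R effect being the higher for 2307 and the lower for 1691.

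**Figure D1:**
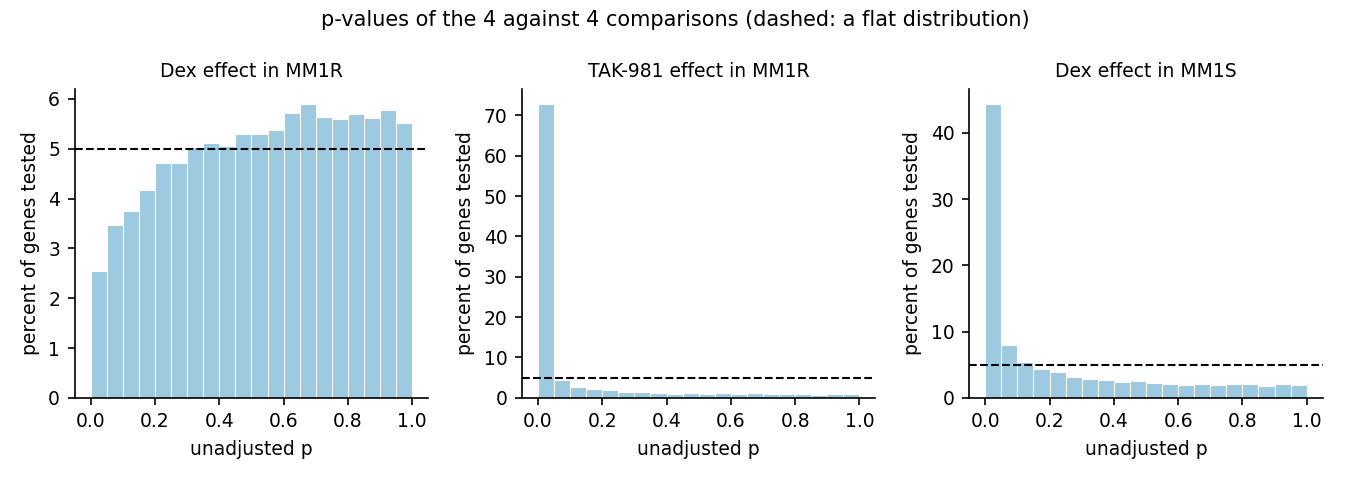
Distribution of the unadjusted p-values of all genes tested for Dex in MM1R, TAK-981 in MM1R and Dex in MM1S, with p on the x axis the percent of genes in each bin on the y axis (scaled separately in each panel), and a dashed line for p-values spread evenly. The MM1R Dex values do not pile up near 0 (352 genes under 0.05), while 9773 genes passed the test for TAK-981 and 4734 for Dex in MM1S.

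Libraries with and without Dex lay about as close as replicates of 1 group. Over 9667 genes with a mean log2 CPM of at least 3, the median absolute log2 difference between 2 libraries of the same MM1R group was 0.05 to 0.08. It was 0.05 to 0.09 between a Veh and a Dex library, and 0.05 to 0.07 between a TAK-981 and a combo library. Across TAK-981 it was larger, at 0.26 to 0.29 between Veh and TAK-981 and 0.24 to 0.27 between Dex and combo. In MM1S, over 9819 genes, replicates differed by 0.07 to 0.16 and Veh from Dex by 0.21 to 0.26. Of the MM1R genes, 226 (1.64%) had both Dex libraries above both others with and without TAK-981, and 351 (2.55%) had them below. A random order of libraries would also separate some genes this way, so these counts are a description. In MM1S the counts above and below were 2422 (17.6%) and 2796 (20.3%).

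RNA of the receptor gene was counted in MM1R, at a lower level than in MM1S, and did not pass the test for Dex. NR3C1 lies at chr5:142657496-142815077 on the minus strand (coordinates of the deposited table, hg19 per the submitters). Its levels were 19.9 and 17.9 CPM with Veh, 19.4 and 16.7 with Dex, 20.5 and 20.4 with TAK-981, and 19.3 and 20.2 with combo. The Veh and Dex libraries overlapped while both combo libraries lay below both TAK-981 libraries, and the log2 fold change was -0.05 (95% interval -0.18 to 0.08, SE 0.0612, adjusted p = 1.00 in edgeR), which spans -11.7% to 5.39%. All 8 MM1S libraries were higher, at 239 to 357 CPM. There Dex lowered it by a log2 fold change of -0.22 (adjusted p = 0.0234), and this effect was not shown to differ from that in MM1R (difference 0.16, adjusted p = 0.174). The count is summed over the gene and does not tell its transcripts apart.

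None of the 32 tested genes of the glucocorticoid-induced list (40 genes) was called in MM1R. Their median log2 fold change was -0.02, against 0.00 (0.00275) over all genes, 9 were above 0 (52.2% of all genes were), and 1 was higher and 2 were lower at an unadjusted p under 0.05 (2.55% of all genes were at either). In MM1S, 21 of 33 tested were raised and 2 lowered, with a median of 0.45, where 15.3% of all genes were raised and 19% lowered. The line difference was called for 23 of 34, 21 of them lower in MM1R, where it was called for 28.1% of all genes and lower for 11.9%. Among the 8 genes too low to test in MM1R were CEBPD, CRISPLD2, IL1R2, MT1E, MT1F, MT2A and ZBTB16.

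FKBP5, an HSP90 cochaperone that restrains the receptor and is a standard marker of its activity, lies at chr6:35541362-35696397 on the minus strand (hg19). In MM1R it was at 93.0 and 96.4 CPM with Veh, 92.5 and 99.0 with Dex, 61.3 and 54.9 with TAK-981, and 56.8 and 59.1 with combo. The libraries with and without Dex overlapped on either side of TAK-981. The log2 fold change was 0.02 (95% interval -0.06 to 0.09), so the interval reached from 4.26% lower to 6.68% higher. In MM1S the same gene went from 68.6 and 69.0 CPM with Veh to 1725 and 1602 with Dex, and to 3025 and 3107 with combo, 41.7-fold over all 8 libraries (adjusted p = 1.22e-06). The difference between the lines was -5.37 on the log2 scale (SE 0.354, adjusted p = 2.27e-07).

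TSC22D3 encodes GILZ, a leucine zipper protein that mediates anti-inflammatory actions of glucocorticoids. Its levels in MM1R were 85.1 and 86.8 CPM with Veh, 79.0 and 87.5 with Dex, 156 and 163 with TAK-981, and 151 and 150 with combo. It was raised by TAK-981 (log2 fold change 0.87, adjusted p = 1.99e-14), while the Dex value was -0.06 (95% interval -0.13 to 0.02). Dex raised it 12.5-fold in MM1S.

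**Figure D2:**
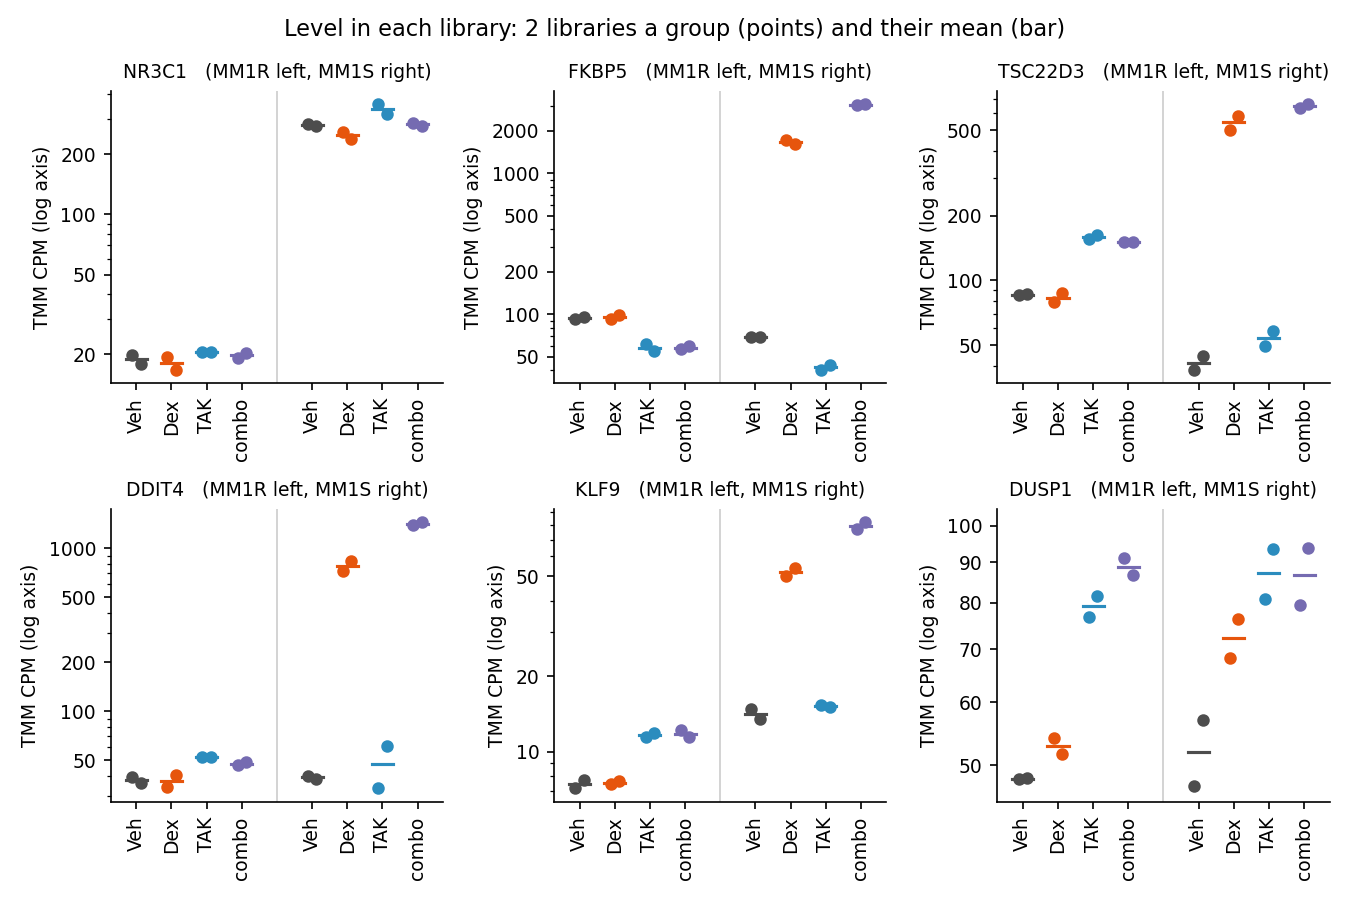
CPM of NR3C1, FKBP5, TSC22D3, DDIT4, KLF9 and DUSP1 on log axes, by group, with MM1R on the left and MM1S on the right of each panel. Each point is 1 library and each bar the mean of 2, and FKBP5 stayed between 54.9 and 99.0 CPM in the 8 MM1R libraries while it reached 3107 CPM in MM1S.

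PER1 and KLF9, direct targets of the receptor in textbook accounts, were also near no change. PER1, a repressor of the circadian clock, was at 34.5 and 38.5 CPM with Veh and 32.7 and 33.9 with Dex, and at 36.4 and 38.9 with TAK-981 and 37.8 and 40.3 with combo. Its log2 fold change was -0.03 (95% interval -0.14 to 0.07), and its MM1S value was 0.31 (adjusted p = 0.00509). KLF9, a zinc finger transcription factor, was at 7.15 and 7.71 CPM with Veh, 7.43 and 7.64 with Dex, 11.5 and 11.9 with TAK-981, and 12.2 and 11.4 with combo. Its log2 fold change was 0.02 (95% interval -0.12 to 0.17), against 2.13 in MM1S. For ZBTB16, a transcriptional repressor, MM1R held too few reads for a test (0.0414 to 0.175 CPM), and MM1S went from 0.987 and 1.54 CPM with Veh to 38.7 and 37.4 with Dex.

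DUSP1, a phosphatase that switches off MAP kinases, had the smallest p of all genes. It was at 48.0 and 48.2 CPM with Veh and 54.1 and 51.6 with Dex, and at 76.8 and 81.6 with TAK-981 and 91.0 and 86.7 with combo. All 4 Dex libraries lay above the libraries they were set against. The log2 fold change was 0.16 (95% interval 0.08 to 0.24, SE 0.0368, adjusted p = 1.00 in edgeR), between 5.88% and 17.8% higher, and it was 0.14 to 0.18 with any 1 library left out. It did not pass the adjusted test. In MM1S the value was 0.23 (adjusted p = 0.132), and the lines were not shown to differ (-0.08, adjusted p = 0.694).

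The other named members of the list also did not pass. TXNIP, which binds thioredoxin and limits glucose uptake, was at 478 and 474 CPM with Veh and 434 and 471 with Dex, and at 1491 and 1479 with TAK-981 and 1438 and 1379 with combo. Both Dex libraries lay below both others on either side, with a log2 fold change of -0.07 (95% interval -0.13 to -0.01), against 0.99 in MM1S (adjusted p = 0.000973). NFKBIA, the inhibitor of NF-κB, had 0.04 (95% interval -0.06 to 0.14), and SGK1, a kinase that acts on ion transport, had -0.02 (95% interval -0.09 to 0.05). In MM1S, NFKBIA rose by 1.05 (adjusted p = 5.82e-06) and SGK1 fell by 0.34 on the log2 scale (adjusted p = 0.0163). BCL2L11, whose product BIM is a proapoptotic BH3-only protein, was at 213 and 217 CPM with Veh, 212 and 210 with Dex, 218 and 221 with TAK-981, and 212 and 205 with combo, a log2 fold change of -0.04 (95% interval -0.11 to 0.02), and rose by 0.49 in MM1S (adjusted p = 0.000308).

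**Figure D3:**
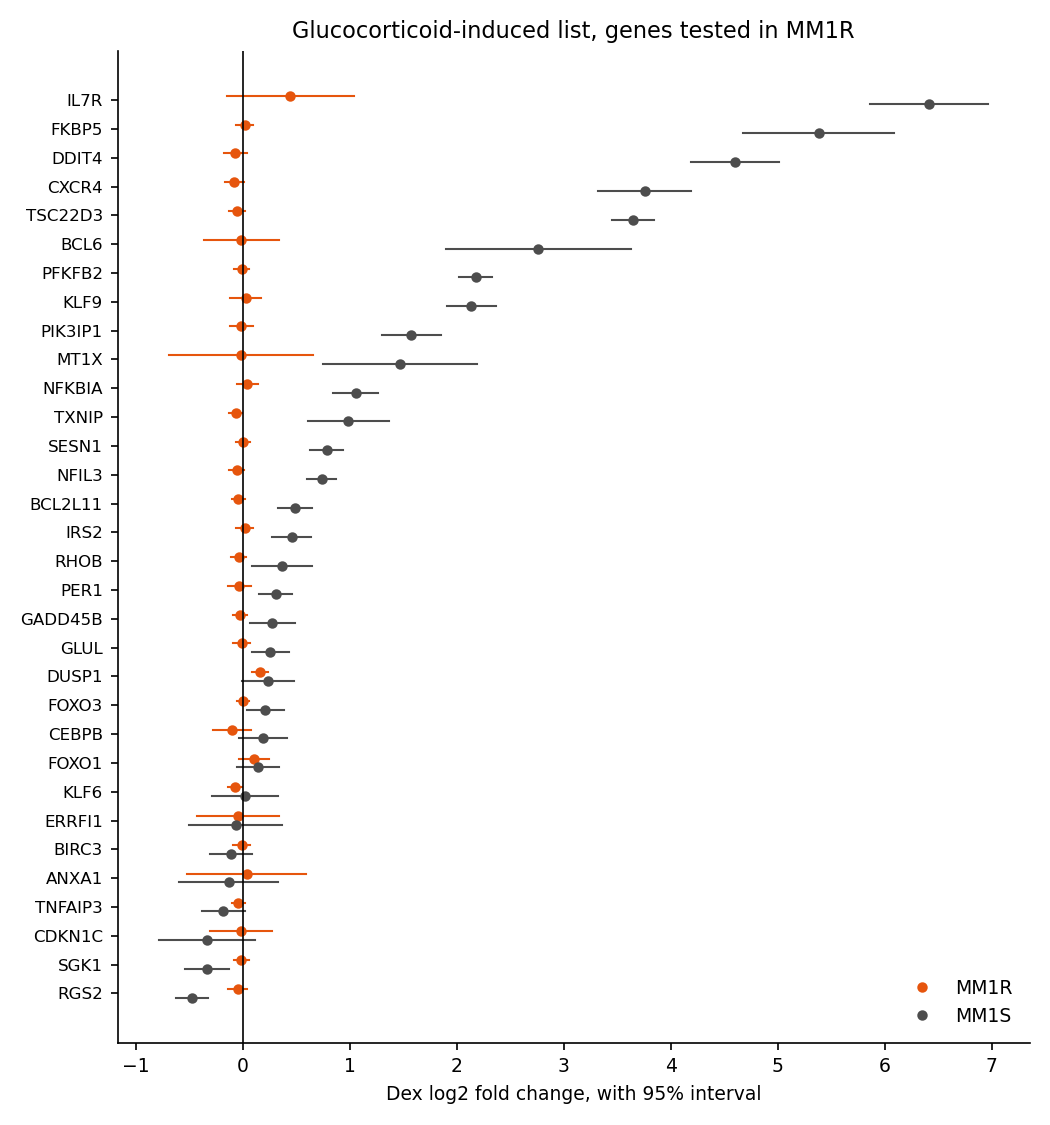
Dex log2 fold change in MM1R with its 95% interval (x axis) for each tested gene of the glucocorticoid-induced list (y axis), in orange, with the MM1S value and interval of the same gene in grey. The MM1R intervals of 25 of the 32 genes lie within 1.2-fold of no change, and 29 lie within 1.5-fold, beside 70.7% and 87.3% of all genes.

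Genes that glucocorticoids are known to repress, AP-1 and NF-κB targets among them, were not called either. Of 20 listed, 15 were tested, 7 were above 0 (52.2% of all genes were), and the median was -0.01. CXCL8, FOSL1, IL1B, IL6 and TNF were too low. JUN, a subunit of AP-1, had 0.08 (95% interval 0.00 to 0.15), FOS, its partner, 0.09 (-0.01 to 0.19), and the chemokine CCL3 -0.04 (95% interval -0.10 to 0.03). FOS differed between the lines by 1.02, with -0.94 in MM1S. In MM1S, 6 of 14 tested were lowered and 2 raised, with a median of -0.39, beside the 19% and 15.3% of all genes.

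The receptor's chaperones and coregulators, listed with the enzymes that convert glucocorticoid, were likewise uncalled. Of 31 genes, 30 were tested (NR0B1 was too low), and the median was -0.01. At an unadjusted p under 0.05 there were 0, beside 2.55% of all genes. The intervals of 26 lay within 1.2-fold of no change, beside 70.7% of all genes. HSPA1B, an inducible HSP70, had 0.09 (95% interval -0.02 to 0.21), with 0.73 in MM1S. HSD11B1, which regenerates active glucocorticoid, had -0.30 (95% interval -0.67 to 0.08), and HSD11B2, which inactivates it, had -0.36 (-0.86 to 0.13). Among 13 other steroid and xenobiotic receptors and targets, 8 were tested with a median of 0.02. NR1I2, the pregnane X receptor, had -0.73 (95% interval -1.44 to -0.02) at 0.215 to 1.07 CPM. PGR, the progesterone receptor, had 0.32 (95% interval -0.06 to 0.70) and PGRMC1, a heme-binding membrane protein, -0.06 (-0.18 to 0.05). Of 16 BCL2 family genes, 15 were tested with 10 above 0 (52.2% of all genes were) and a median of 0.02. BMF, a BH3-only protein, was at 168 and 170 CPM with Veh, 150 and 161 with Dex, 271 and 284 with TAK-981, and 272 and 261 with combo, a log2 fold change of -0.08 (95% interval -0.15 to -0.02), and was raised by 0.87 in MM1S. BAX, a pore-forming effector, had 0.08 (95% interval -0.01 to 0.17) and HRK, another BH3-only protein near 0 CPM, 0.71 (-0.29 to 1.72).

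Genes that Dex moved in MM1S were split around 0 in MM1R. Of 299 genes raised at least 2-fold in MM1S (log2 fold change of at least 1, called), 228 were tested in MM1R: 110 (48.2%) were above 0, 0 were called, and 3 were higher and 4 lower at an unadjusted p under 0.05. Their median log2 fold change was 1.37 in MM1S and -0.01 in MM1R. Of 617 lowered genes, 592 were tested: 331 (55.9%) were above 0, 0 were called, and the medians were -1.27 and 0.01. At an unadjusted p under 0.05, 9 of them (1.52%) were higher and 8 (1.35%) lower. Of 58 genes lowered at least 4-fold in MM1S, 51 were tested in MM1R. Of these, 0 were called, and 0 were higher and 3 lower at that unadjusted p. Those 3 are 5.88%, beside 1.03% of all genes. Of 73 raised at least 4-fold, only 40 held enough reads in MM1R to be tested, and of these 0 were higher and 0 lower. Over all genes 52.2% were above 0, and 1.52% were higher and 1.03% lower at that unadjusted p. For the 228 raised genes the latter shares were 1.32% and 1.75%. The choice by Dex effect used MM1S libraries only, but the genes also had to hold enough reads in MM1R to be tested. The line difference was called lower in MM1R for 204 of the 228 and higher for 564 of the 592, beside 11.9% and 16.2% of all genes. Since the choice was made on the MM1S effect, these counts are a description.

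DDIT4, an inhibitor of mTORC1, was raised 24.2-fold in MM1S. In MM1R it was at 39.3 and 36.1 CPM with Veh, 34.2 and 40.5 with Dex, 52.6 and 52.3 with TAK-981, and 46.8 and 48.5 with combo, a log2 fold change of -0.07 (95% interval -0.18 to 0.03). CXCR4, the receptor for CXCL12 that homes plasma cells to marrow, was raised 13.5-fold in MM1S, and in MM1R was at 40.8 and 45.5 CPM with Veh, 39.0 and 42.9 with Dex, 51.9 and 51.9 with TAK-981, and 48.3 and 48.5 with combo. Its log2 fold change was -0.08 (95% interval -0.17 to 0.01). BCL6 (a transcriptional repressor), FAR2 (a fatty acyl-CoA reductase), SLC22A23 and SMAP2 rose by 2.76, 2.84, 3.12 and 2.64 in MM1S and had -0.02, 0.02, -0.05 and -0.01 in MM1R.

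SCD, which desaturates fatty acids, fell by 2.69 on the log2 scale in MM1S. In MM1R it was at 786 and 771 CPM with Veh, 736 and 730 with Dex, 301 and 284 with TAK-981, and 319 and 302 with combo, so Dex libraries lay lower without TAK-981 and higher with it, and the log2 fold change was 0.00 (95% interval -0.07 to 0.07). The lipid genes SREBF1, a sterol-response transcription factor, and FADS1, a fatty acid desaturase, fell by 2.24 and 2.36 in MM1S and had 0.03 and -0.01 in MM1R. These MM1R values also pool unlike estimates: SREBF1 had -0.05 without TAK-981 and 0.13 with it, and FADS1 -0.08 and 0.10. CCL3, SLC16A14, PPFIA4, VEGFA and LGALS17A had MM1S values of -2.63, -2.38, -2.34, -2.10 and -2.08, and MM1R values of -0.04, 0.04, -0.11, -0.10 and 0.06. The MM1R 95% intervals of PPFIA4 (-0.22 to -0.0005) and VEGFA (-0.19 to -0.003) lay below 0, though neither gene was called. Those of CCL3, SLC16A14 and LGALS17A held 0. CCL3 had -0.11 without TAK-981 (95% interval -0.18 to -0.03) and 0.03 with it. LGALS17A had 0.13 (95% interval 0.02 to 0.24) and -0.001. The interaction was not called for SCD, SREBF1, FADS1, CCL3 or LGALS17A. RRM2, a subunit of ribonucleotide reductase, had 0.02 in MM1R and -1.47 in MM1S. MYC had -0.03 in MM1R (95% interval -0.10 to 0.04) and 0.33 in MM1S.

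**Figure D4:**
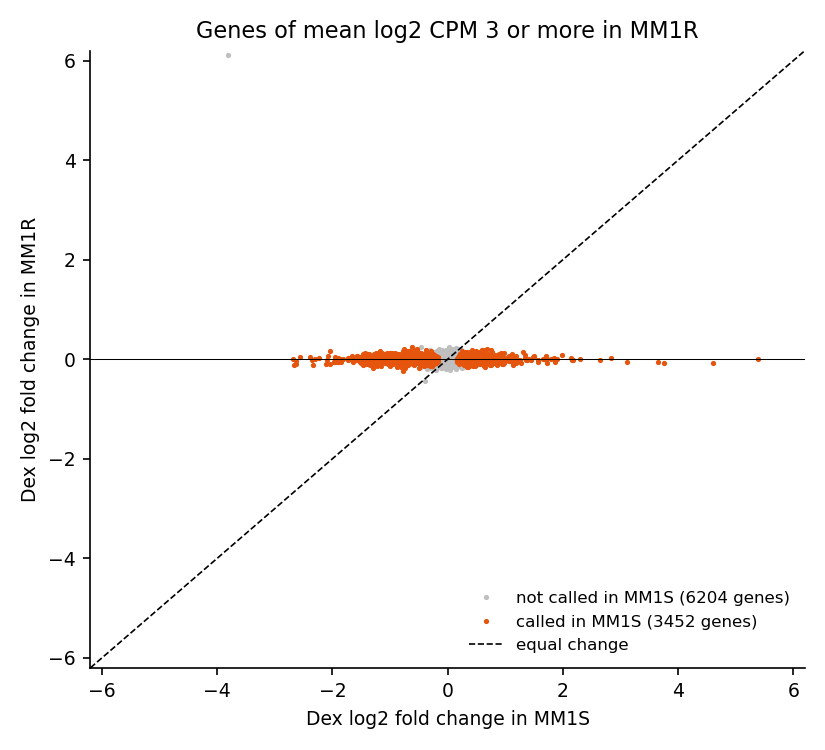
Dex log2 fold change of each gene in MM1S (x axis) against that in MM1R (y axis), each point 1 gene with a mean log2 CPM of at least 3 in MM1R, with genes called in MM1S in orange and a dashed line of equal change. The orange points lie along the line of no change in MM1R, and the lone grey point at 6.11 is EXD3, whose counts stood in single libraries.

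How small a change could be seen depended on the level of a gene. The margin of the 95% interval of a gene's Dex log2 fold change (the distance from the estimate to either end) had a median of 0.12, or 1.08-fold. For a single gene to be called alone among all 13788, its estimate would have had to reach a median of 0.35, or 1.28-fold. These sizes come from the fit over all 8 libraries and refer to estimates. A true change of such a size would often be missed, because estimates vary around it. Genes under a mean log2 CPM of 0 (1342 genes) had a margin of 0.67, 1.59-fold, and would have needed 4.12-fold. The 3778 genes over 6 had a margin of 0.07, 1.05-fold, and needed 1.16-fold. Between these, 1783 genes from 0 to 2 had 1.28-fold, 2488 from 2 to 4 had 1.13-fold, and 4397 from 4 to 6 had 1.07-fold.

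**Figure D5:**
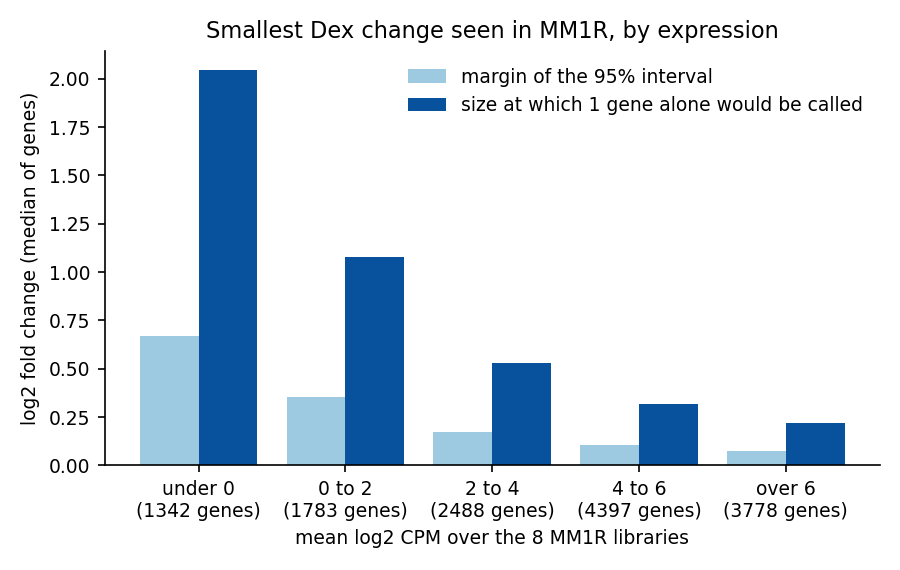
Median over genes of the margin of the 95% interval of the Dex log2 fold change in MM1R (light bars) and of the size of estimate at which 1 gene alone would be called (dark bars), on the y axis, by band of mean log2 CPM on the x axis. The margin fell from 0.67 for genes under 0 to 0.07 for genes over 6.

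The interval lay within 1.2-fold of no change for 9744 genes (70.7%), within 1.5-fold for 12033 (87.3%) and within 2-fold for 13289 (96.4%). For the genes raised in MM1S, the end of the MM1R interval in the same direction reached a median of 17.8% of the MM1S log2 change (10.2% for those lowered). Over the 228 raised, that end was under 25% for 142 and under 50% for 197, and reached 116% for C17orf97. Over the 592 lowered, it was under 25% for 462 and under 50% for 561, and reached 86.2% for GLB1L2. Both genes were named after their values were seen. For the 40 tested of the 73 raised at least 4-fold, it reached a median of 13.0% and was under 25% for 30. It was highest for TRIM40 (43.0%, named after its values were seen). IL7R, the interleukin-7 receptor chain (named after its values were seen), was raised 85.2-fold in MM1S and had 0.44 in MM1R (95% interval -0.15 to 1.04), on counts of 1 and 10 with Veh, 8 and 11 with Dex, 27 and 26 with TAK-981 and 35 and 38 with combo.

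Split by the inhibitor, Dex called 0 genes (0%) in MM1R without TAK-981 and 0 (0%) with it, and 0 (0%) for the interaction. Without TAK-981, 895 genes were under an unadjusted p of 0.05 and the smallest adjusted p was 0.757. With it, these were 475 and 0.164, and for the interaction 985 and 0.102. Leaving out the second Dex library left the first as the only Dex library without TAK-981, and then 875 genes were called there and 747 for the interaction, while leaving out the first gave 2 and 6. Leaving out the first Veh library gave 20. Over 9663 genes, the estimates without and with TAK-981, which share no library, had a Pearson correlation of -0.183 across genes, with the same sign in 39.1%, and -0.034 and 50.2% with the first Dex library left out. In MM1S these were 0.735 and 68.7%. These are descriptions, since genes are not independent replicates.

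With TAK-981, where combo is set against TAK-981 alone, 6 genes that missed the threshold with all 8 libraries were called when either library with Dex alone was left out and also when the filter on low counts was dropped, 1 higher and 5 lower in each case. The Dex-alone libraries enter this contrast through the shared estimate of spread. None of the 6 was called in this contrast by DESeq2, by limma-voom or in the fit over all 16 libraries. Nor did the calls hold when a Veh, TAK-981 or combo library was left out instead. The 6 are named after their values were seen, and 4 of them (AHNAK, LDHA, MIR210HG and MTA3) were also called for the interaction without the first Dex library. AHNAK, a large scaffold protein, was at 167 and 164 CPM with Veh, 169 and 185 with Dex, 96.2 and 102 with TAK-981, and 78.9 and 82.1 with combo. Both combo libraries lay below both TAK-981 libraries, with a log2 fold change of -0.30 (adjusted p = 0.164, and 0.000251 without the first Dex library). The value without TAK-981 was 0.11 and the interaction -0.41 (adjusted p = 0.103). In MM1S, Dex raised AHNAK by 0.52. MIR210HG, the host RNA of a hypoxia-inducible microRNA, was at 3.52 and 3.14 CPM with Veh, 3.89 and 5.60 with Dex, 2.30 and 3.58 with TAK-981, and 1.04 and 0.865 with combo. Its log2 fold change with TAK-981 was -1.63 (adjusted p = 0.164, and 0.000798 without the first Dex library), and the interaction was -2.15 (adjusted p = 0.102). In MM1S, Dex lowered MIR210HG by a log2 fold change of -3.21. With the replicate number as a block, AHNAK and MIR210HG were called with TAK-981 (adjusted p = 0.00267 and 0.00885), and DESeq2 called both for the interaction. The others were LDHA (-0.17), P4HA1 (-0.23), MTA3 (-0.57) and LINC00273 (0.55), with adjusted p of 0.0338, 0.0452, 0.0253 and 0.037 without the first Dex library. LDHA and P4HA1 are known hypoxia-inducible genes, for lactate production and collagen hydroxylation. In MM1S their Dex values were -1.50 and 1.28.

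Among genes whose log2 CPM averaged 3 or more and whose Dex libraries both lay on 1 side of both others with and without TAK-981, the 6 above and the 6 below with the smallest unadjusted p had estimates of small size. Genes under that level stood among the 10 smallest p-values with larger estimates, such as KLRC1 (-0.82) and PTGDR2 (0.82), named after their values were seen. Above were DUSP1, ARHGAP33, CHTF18 (a clamp loader subunit), PKD1 (polycystin-1), XK and FAM160B2, with 0.12 to 0.19. ARHGAP33 was at 28.2 and 27.0 CPM with Veh, 30.0 and 32.1 with Dex, 21.5 and 21.8 with TAK-981, and 23.7 and 25.5 with combo (0.18, 95% interval 0.08 to 0.29, adjusted p = 1.00 in edgeR). Its MM1S value was -0.37, and the lines differed by 0.55 (adjusted p = 0.00525). CHTF18 had 0.16 in MM1R and -0.66 in MM1S, and XK 0.19 and 0.59. Below were EFCAB7, CIR1, C16orf87, FAM171A1, FOSB and ITPRIP, with -0.23 to -0.09. FOSB, an AP-1 subunit, was at 11.7 and 11.8 CPM with Veh, 11.0 and 10.1 with Dex, 12.6 and 11.2 with TAK-981, and 10.5 and 8.48 with combo (-0.23, 95% interval -0.39 to -0.06, adjusted p = 1.00 in edgeR). Its MM1S value was -0.77 (adjusted p = 0.000696) and the lines differed by 0.53 (adjusted p = 0.0171). The order used these libraries, so the separation is not a separate finding.

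Only 10 genes had an estimate of at least 2-fold in MM1R, all uncalled: CPNE7, EDARADD, EXD3, FRMD8P1, LRRC38, LYPD1, NBPF8, NLRP6, SYNJ2-IT1 and WTH3DI, named after their values were seen. For 7 of them the counts summed over the 8 libraries to less than 150, and in 3 more than 50% lay in 1 library. EXD3 held 28410 counts in the first Dex library and 62 to 109 in the other 7, giving 6.11 with a 95% interval of -0.87 to 13.1. NBPF8 held 234 counts in the second combo library and 10 to 16 elsewhere. At 1.5-fold, 124 genes had such an estimate.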

How the data were processed

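Total RNA of 16 libraries was sequenced. Per the labels, the submitters' processing notes name bcl2fastq 2.18.0.12, STAR 2.6.0, HTSeq 0.6.0, edgeR 3.28.1 and hg19. The authors deposited whole-number counts per gene, not normalized, with 1 column per library.

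Genes were kept by filterByExpr, scaled by TMM and tested with edgeR 4.0.16 (R 4.3.3, limma 3.58.1) by robust quasi-likelihood F tests on Dex with a TAK-981 term, adjusted by Benjamini-Hochberg over all genes at 0.05. Simple effects and the interaction came from a model with 1 term per group, and the line difference from 1 fit over 16 libraries. Intervals are 95%. SE is the unshrunk coefficient divided by the square root of F. The procedure was tested on simulated data. DESeq2 1.42.0 and limma-voom, other scalings, no filter, a replicate block and each library left out were alternatives. Named genes were NR3C1, 10 glucocorticoid-induced genes, the 6 genes in each direction with the smallest p among those whose log2 CPM averaged 3 or more and whose Dex libraries both lay on 1 side, the 8 largest called MM1S changes in each direction among genes with a mean log2 CPM of at least 3 in MM1S and 1 in MM1R, the 3 smallest p of each other list, RRM2 and MYC. Members and gene lists were chosen with earlier results of these data known.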

Additional observations from a re-analysis of the deposited data

Results flagged for a closer look

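The Dex effect differed between MM1R and MM1S for 3998 of 14215 genes (28.1%) by the test of the difference. Among them were 35 of the 49 genes taken by the naming rule, each value below being the log2 fold change in MM1R minus that in MM1S. It was lower in MM1R for 18: FKBP5 (-5.37), ZBTB16 (-5.44), DDIT4 (-4.68), CXCR4 (-3.85), TSC22D3 (-3.71), SLC22A23 (-3.18), FAR2 (-2.81), BCL6 (-2.79), SMAP2 (-2.66), KLF9 (-2.12), TXNIP (-1.06), NFKBIA (-1.02), BMF (-0.96), HSPA1B (-0.64), BCL2L11 (-0.54), XK (-0.42), MYC (-0.37) and PER1 (-0.35). It was higher in MM1R for 17: HRK (3.52), SCD (2.69), CCL3 (2.59), SLC16A14 (2.42), FADS1 (2.35), SREBF1 (2.27), PPFIA4 (2.22), LGALS17A (2.13), VEGFA (1.999), RRM2 (1.47), FOS (1.02), HSD11B1 (0.97), CHTF18 (0.83), ARHGAP33 (0.55), FOSB (0.53), SGK1 (0.31) and FAM171A1 (0.30). The values of ZBTB16 and HRK rest on few reads in MM1R (0.0413 to 0.175 and 0.0537 to 0.634 CPM). Genes taken from the MM1S effect were chosen for it, so their differences describe it. Groups of 2 libraries are too small for a check of single libraries, which needs 4.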

How the results depend on the processing

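The Dex count in MM1R stayed at 0 under another scaling, no filter on low counts, the replicate block, DESeq2, limma-voom, the non-robust fit, the fit over 16 libraries and an adjusted p of 0.25, and ran from 0 to 8 with 1 library left out. Without TAK-981 the count was 24 without a filter and 2 with the replicate block, and 0 to 875 with 1 library left out. With TAK-981 it was 6 without a filter, 2 with the replicate block, 3 at an adjusted p of 0.25, and 0 to 6 with 1 library left out. The interaction gave 38 without a filter, 5 with the replicate block, 2 with DESeq2, 2 at an adjusted p of 0.25, and 0 to 747 with 1 library left out. At 0.25, Dex in MM1S gave 7879 and the line difference 7019. Same-numbered libraries deviated from their group means with correlations of -0.0125 to 0.0902 over 13788 genes. With 2 libraries per group, such correlations cannot settle whether the numbers pair the libraries. The replicate block moved the genes under an unadjusted p of 0.05 from 352 to 440. These moved from 895 to 1374 without TAK-981, from 475 to 764 with it, and from 985 to 1602 for the interaction. The cause of these moves was not tested. Chosen after seeing the data, leaving out the first Dex library moved the correlation of the estimates with and without TAK-981 from -0.183 to -0.034 and the genes under an unadjusted p of 0.05 from 352 to 726. Over 48 named genes and 768 values, 767 stayed on their side of the threshold with no change of sign beyond 1 SE (30 changes of sign within 1 SE), and NFKBIA, at 0.04, ran from -0.0066 (without the first TAK-981 library, a change of sign) to 0.0718 with 1 library left out. Depth limits genes under a mean log2 CPM of 0, where a single call would need an estimate of 4.12-fold.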
